A study of Arabidopsis thaliana with 22 samples.

Results

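The report describes the primary transcripts of 59 Arabidopsis thaliana MIR loci, chosen by family name: MIR156 to MIR173, MIR319, MIR390, MIR393, MIR394, MIR396, MIR398, MIR403, MIR408, MIR472, MIR824 and MIR827. Of these loci 58 were listed among the 5224 non-coding loci of the deposited tables, and MIR162a was not analysed here. The samples were roots of 11-day-old plants, cut into the differentiation zone (DZ) and the meristematic-elongation zone (MEZ). They came from the proscoop12 mutant, in which the gene for the precursor of the peptide SCOOP12 is affected, and from its wild-type background Ws. Plants received 100 nM SCOOP12 or water. The 8 groups were proscoop12 DZ with SCOOP12, proscoop12 DZ control, Ws DZ with SCOOP12, Ws DZ control, and the same 4 combinations in MEZ. Each had 3 libraries, numbered 1, 3 and 4, except Ws DZ control and Ws MEZ with SCOOP12, which had 2 (numbers 3 and 4). The labels name neither the mutant allele nor separate cultures, and the p-values hence cover no more than the spread between these 22 samples. No coding transcript was in the tables, so neither PROSCOOP12 nor marker genes of root zones gave a check of the labels.

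A MIR gene is transcribed by RNA polymerase II into a capped and polyadenylated primary transcript. The nuclease DCL1 cuts its hairpin to release a short duplex, and one strand of that duplex guides an ARGONAUTE protein to complementary mRNAs. The level of a primary transcript is therefore not the level of the mature miRNA, and an intermediate cut by DCL1 has lost the poly(A) tail that an mRNA library selects. The miR159, miR164, miR166, miR398 and miR408 families are shared widely among land plants, whereas miR163, miR158 and miR824 are known mainly from Arabidopsis and its relatives; "conserved" therefore describes only part of the set.

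For the 9 loci with at least 30 reads, the strand known as the guide is printed 5′ to 3′ as RefSeq annotates it on assembly TAIR10.1, with the seed (bases 2 to 8) in capitals, because these are the miRNAs whose precursors could be followed.
ath-miR163: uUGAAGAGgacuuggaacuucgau
ath-miR398b-3p: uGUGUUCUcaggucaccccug
ath-miR408-3p: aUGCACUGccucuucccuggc
ath-miR824-5p: uAGACCAUuugugagaaggga
ath-miR159b-3p: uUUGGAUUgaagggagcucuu
ath-miR166b-3p: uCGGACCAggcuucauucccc
ath-miR403-3p: uUAGAUUCacgcacaaacucg
ath-miR158a-3p: uCCCAAAUguagacaaagca
ath-miR164b-5p: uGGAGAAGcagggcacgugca
No pair of these guides shares a seed, so each of the 9 precursors stands for a different seed.

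The hairpins of MIR398b and MIR398c are shown next, with the letters that differ in capitals, because reads had to be divided between them. They encode the same mature sequence.
MIR398b: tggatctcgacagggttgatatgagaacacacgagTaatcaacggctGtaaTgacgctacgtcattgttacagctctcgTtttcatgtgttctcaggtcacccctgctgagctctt
MIR398c: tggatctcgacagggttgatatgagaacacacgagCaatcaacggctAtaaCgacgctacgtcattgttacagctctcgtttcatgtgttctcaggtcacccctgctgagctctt
Both lie on the plus strand of chromosome 5, MIR398b at chr5:4691022-4691137 and MIR398c at chr5:4694694-4694808. They differ at 3 aligned letters, and 1 further letter of MIR398b has no partner. MIR398b was assigned 407 reads and MIR398c 13, and a read that covers none of the differing letters cannot be placed at one of them; the division between the 2 loci is therefore uncertain.

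Reads on these loci were few. Libraries held 474436 to 1575523 estimated reads in all, of which the 58 precursors took 0.0103%. Of the 58, 44 had at least 1 read over the 22 libraries and 14 had none, against 2599 of 5224 loci with reads in the whole series. The 9 loci with at least 30 reads held 1739 of the 1986 precursor reads, or 87.6%. A further 10 loci had 10 to 29 reads and 25 had 1 to 9. The 14 loci without reads were MIR156e, MIR156f, MIR157a, MIR157c, MIR157d, MIR160a, MIR164a, MIR167b, MIR170, MIR172a, MIR172b, MIR319a, MIR394a and MIR394b, and 3 of the 29 families (MIR170, MIR172 and MIR394) had no read on any listed member. At 0 reads a locus may still be present below 3 reads over all libraries, a limit for counting error only. The 14 loci without reads had a median listed length of 111 nt, against 153 nt for the 9 with at least 30 reads. Salmon, which made the deposited counts, gave some of the 14 very short effective lengths, such as 2.94 nt for MIR156e and 2.85 nt for MIR170. Others kept their full length, such as MIR172a at 102 nt. The part of length in the 0 counts was not tested. Just inside the 30-read limit was MIR164b with 35 reads, and just outside it MIR161 and MIR169a with 23 each. The other loci with 10 to 29 reads were MIR827 and MIR166a (15 each), MIR159a and MIR160c (14 each), MIR398c (13), MIR165a and MIR319b (12 each) and MIR168a (11).

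**Figure D1:**
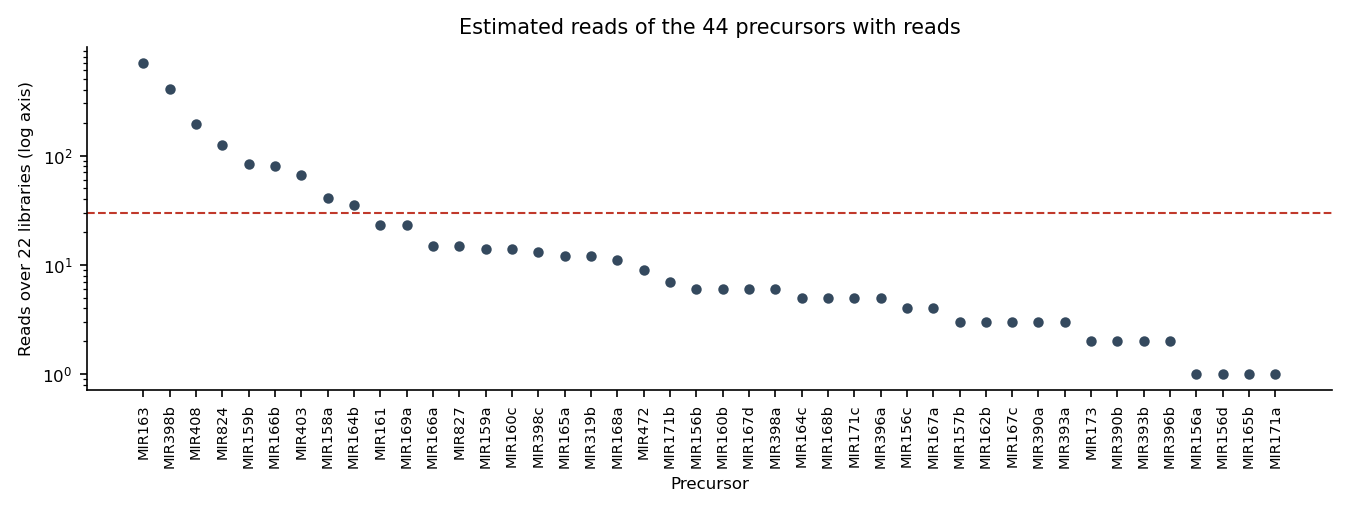
Estimated reads over all 22 libraries (log axis) for each of the 44 precursors with reads, 1 point per locus, with the 30-read limit as a dashed line. MIR163, MIR398b and MIR408 lead with 707, 407 and 193 reads, and 35 of the 44 loci lie below the line.

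Levels are given as CPM, the usual scaling of reads to a common library size, here over the 844 loci tested and after TMM scaling; 1 read is worth 0.92 to 1.60 CPM. MIR163 (AT1G66725), whose miRNA targets methyltransferase genes such as PXMT1, was highest with 707 reads (mean 38.9 CPM over the 22 libraries). It is a transcript of 331 nt on chromosome 1 (chr1:24884066-24884396, plus strand). MIR398b (AT5G14545), whose miRNA targets the copper/zinc superoxide dismutases CSD1 and CSD2, followed with 407 reads (22.0 CPM). MIR408 (AT2G47015), a regulator of laccases and other copper proteins, had 193 reads and lies at chr2:19319814-19320031 on the plus strand. MIR824 (AT4G24415), whose miRNA targets the MADS-box gene AGL16, had 125 reads. MIR159b (AT1G18075), of the family that represses GAMYB-like factors such as MYB33, had 83, and MIR166b (AT3G61897), which restricts HD-ZIP III factors such as PHABULOSA, had 81. MIR403 (AT2G47275), whose miRNA targets AGO2, had 67, MIR158a (AT3G10745) had 41, and MIR164b (AT5G01747), which targets NAC genes such as CUC2, had 35.

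Per length the order changed, because the listed transcripts run from 100 nt (MIR158a) to 689 nt (MIR824). Mean levels per kb of listed length were 189.3 CPM for MIR398b, 118 for MIR163, 48.4 for MIR408, 35.8 for MIR166b, 26.8 for MIR403, 22.3 for MIR159b, 21.1 for MIR158a, 12.3 for MIR164b and 9.77 for MIR824. Neighbours from MIR403 down to MIR158a in this order lay close together at 21.1 to 26.8, with 41 to 83 reads behind each value. Salmon's own effective length was a median of 7.02 nt for the 116 nt MIR398b hairpin and 8.76 nt for the 120 nt MIR166b. For the 100 nt MIR158a it was the full 100 nt. Scaling by that length instead would raise some short hairpins far more and leave MIR158a unchanged.

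The annotation limits several of these loci. MIR398b lies wholly opposite exons of AT5G14550, MIR408 wholly opposite exons of AT2G47020, and 26.3% of MIR824 lies opposite exons of AT4G24413. The libraries were stranded, but the strand counted is not given in the sources used here, so reads of these coding genes cannot be told apart from reads of the precursors. MIR472 (9 reads) lies inside the coding gene AT1G12290 on its own strand. MIR156b (6 reads) lies inside the non-coding gene AT4G30975, which had 218 reads, and MIR156f (0 reads) inside AT5G26146, which had 3. Of the 9 loci, MIR398b alone has a copy of at least 50 nt at 95% identity or more elsewhere in the RefSeq genome.

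For 2 libraries of replicate 3 the label and the deposited name disagree. The one labelled as Ws DZ with SCOOP12 has a name for the mutant's DZ control, and the one labelled as the mutant's DZ control has a name for Ws DZ with SCOOP12. Groups follow the labels here, and the precursors' values in comparisons that use DZ are also given without these 2 libraries, except where stated. Pairs of the same number are also given with the groups of the 2 exchanged where that changes their count. By their names, the 14 libraries of replicates 1 and 3 were sequenced in another run than the 8 of replicate 4.

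The zones were compared to show which precursors separate DZ from MEZ. MIR408 was lower in DZ. It stood at 8.59, 3.97 and 7.14 CPM in proscoop12 DZ with SCOOP12 (replicates 1, 3 and 4) and at 5.81, 17.5 and 15.05 CPM in proscoop12 MEZ with SCOOP12. Without the peptide it stood at 4.78, 3.99 and 0 CPM in proscoop12 DZ and at 6.10, 24.8 and 32.1 CPM in proscoop12 MEZ. The mutant's libraries 3 and 4 were thus lower in DZ under both treatments, while those of replicate 1 were low in both zones. In Ws with SCOOP12, MIR408 stood at 2.47, 4.89 and 5.50 CPM in DZ (replicates 1, 3 and 4) and at 17.6 and 15.2 CPM in MEZ (3 and 4). In Ws control it stood at 4.60 and 16.9 CPM in DZ (replicates 3 and 4) and at 7.52, 5.94 and 21.9 CPM in MEZ (1, 3 and 4). The zones overlapped, with a mean of 5.71 ± 4.33 CPM in DZ and 15.4 ± 8.65 CPM in MEZ (SD, n = 11 each), and DZ was the lower in 9 of 10 same-number pairs (7 of 8 without the 2 libraries whose names disagree).

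Over the averaged groups the log2 fold change of MIR408 was -1.41 (SE 0.38, edgeR adjusted p 0.00604); here and below the adjusted p comes from the quasi-likelihood test in edgeR, adjusted after Benjamini and Hochberg over all loci in the fit. Only 3 precursors (MIR163, MIR398b and MIR408) passed the expression filter behind those 844 loci, so 1 of 3 changed with zone, where 37.8% of all tested loci did (19.5% higher and 18.2% lower in DZ). The median log2 fold change was 0.11 over the 3 precursors and -0.02 over all 844 loci. Within single strata the value for MIR408 was -2.71 in proscoop12 control (SE 0.77, edgeR adjusted p 0.0160), where 19.8% of loci passed, and -0.96 in proscoop12 with SCOOP12 (SE 0.70, adjusted p 0.559), where 0.948% did. It was -1.87 in Ws with SCOOP12 (SE 0.79, edgeR adjusted p 0.392) and -0.11 in Ws control (SE 0.77, adjusted p 0.934), where 0.948% and 18.4% of loci passed. Without the 2 libraries whose names disagree, MIR408 did not pass in proscoop12 control (-2.87, edgeR adjusted p 0.0527) and was at -1.90 in Ws with SCOOP12 (adjusted p 0.516). The tests of whether the zone difference varied with genotype or with SCOOP12 did not pass (edgeR adjusted p 1.0 for each). Without these 2 libraries the value over the averaged groups was -1.43 (edgeR adjusted p 0.0151). It did not pass with replicates 1 and 3 alone (-1.31, edgeR adjusted p 0.0643) or with replicate 4 alone (-1.57, adjusted p 0.0502). MIR163 (log2 fold change 0.11, SE 0.44, edgeR adjusted p 0.866) and MIR398b (0.21, SE 0.44, adjusted p 0.738) did not pass, nor did they without the 2 libraries (0.37 for MIR163 and 0.17 for MIR398b). The share of reads on organellar loci also moved with zone, at 19.7% to 46.9% in DZ libraries and 17.2% to 21.9% in MEZ libraries, and its part in these values was not tested. In pieces of whole root, fewer cells of a type and less RNA per cell cannot be told apart.

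All 9 precursors entered a second fit, of the 1184 loci with at least 30 reads over all libraries, a limit that does not look at groups. In it 5 of 9 precursors changed with zone, 3 higher and 2 lower in DZ, where 28.9% of the 1184 loci did (15.2% higher and 13.7% lower). Of the 3 higher, MIR164b met the 30-read limit mainly through DZ, with 28 reads there and 7 in MEZ. Its place among the 9 thus rests on the zone in which it was called higher. The median log2 fold change was 0.39 over the 9 precursors and 0.02 over the 1184 loci. MIR408 was again lower in DZ (log2 fold change -1.42, edgeR adjusted p 0.0067). The same 5 passed with the replicate number as a block, where 36.7% of loci did. They also passed without the 2 libraries whose names disagree, at -1.49 for MIR408, -1.88 for MIR166b, 1.51 for MIR159b, 1.02 for MIR824 and 2.18 for MIR164b on the log2 scale (edgeR adjusted p 0.0138 to 0.0438).

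MIR166b was the other precursor lower in DZ. Its levels in DZ libraries ran from 0 to 5.10 CPM with a median of 1.83, and in MEZ libraries from 0 to 14.9 CPM with a median of 5.81. The ranges overlapped, and DZ was the lower in 9 of 10 same-number pairs. Its log2 fold change was -1.71 (SE 0.49, edgeR adjusted p 0.0105). The other listed member of its family among these loci, MIR166a, had 13 reads in DZ and 2 in MEZ, too few for a test in this fit, and the 2 loci thus stood the other way round from each other.

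MIR159b, MIR824 and MIR164b were higher in DZ. MIR159b stood between 0 and 14.7 CPM in DZ libraries (median 6.49) and between 0 and 8.16 CPM in MEZ libraries (median 2.07), which gave 1.61 on the log2 scale (SE 0.49, edgeR adjusted p 0.0151). MIR824 stood between 3.99 and 18.2 CPM in DZ libraries (median 8.37) and between 1.22 and 7.82 CPM in MEZ libraries (median 3.73). Its log2 fold change was 0.97 (SE 0.33, edgeR adjusted p 0.0317), and it was the one precursor of the 9 that was higher in DZ in 10 of 10 same-number pairs (9 of 10 with the groups of the 2 libraries whose names disagree exchanged). MIR164b stood between 0 and 7.79 CPM in DZ libraries (median 3.20) and between 0 and 4.55 CPM in MEZ libraries (median 0). Its log2 fold change was 2.07 (SE 0.73, edgeR adjusted p 0.0385), on 28 reads in DZ and 7 in MEZ, and the 3 Ws MEZ control libraries had none. Calls for these 3 rested on single libraries. MIR159b lost its call in 1 of 22 cases with a library left out (Ws MEZ with SCOOP12 replicate 3; 1.37 on the log2 scale, edgeR adjusted p 0.0543). MIR824 lost it without any of 4 libraries: Ws DZ control, Ws MEZ with SCOOP12, Ws DZ with SCOOP12 and proscoop12 DZ control, all of replicate 4 (0.70 to 1.17 over all 22 cases, edgeR adjusted p at most 0.156). MIR164b lost it without any of 12 libraries: proscoop12 DZ control replicates 1 and 4, proscoop12 DZ with SCOOP12 replicate 4, Ws DZ control replicate 4, Ws DZ with SCOOP12 replicate 3, proscoop12 MEZ with SCOOP12 replicates 1 and 3, proscoop12 MEZ control replicate 4, Ws MEZ with SCOOP12 replicate 3 and Ws MEZ control replicates 1, 3 and 4. Without Ws DZ control replicate 4 both Ws control groups had 0 reads of MIR164b, which leaves no usable fold change. DESeq2 did not call MIR164b (log2 fold change 1.97, adjusted p 0.0564). MIR408 and MIR166b kept their calls in all 22 cases.

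**Figure D2:**
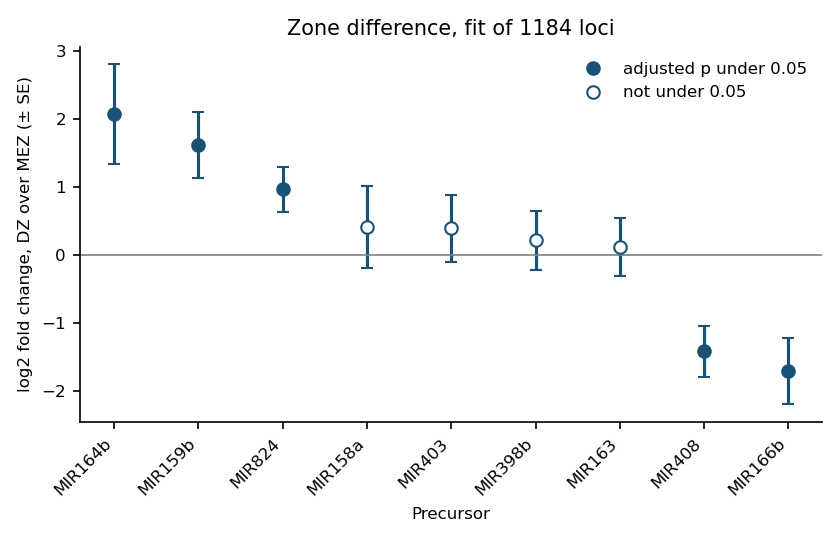
Log2 fold change of DZ over MEZ (y axis) with its SE for the 9 precursors with at least 30 reads, in the fit of 1184 loci averaged over genotype and treatment. Filled points are the 5 precursors with an adjusted p under 0.05: MIR164b, MIR159b and MIR824 above 0, MIR408 and MIR166b below it.

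MIR403 (log2 fold change 0.39, SE 0.49, edgeR adjusted p 0.602) and MIR158a (0.41, SE 0.60, adjusted p 0.660) did not pass, nor did they without the 2 libraries (0.22 for MIR403 and 0.49 for MIR158a). MIR403 had a median of 4.79 CPM in DZ libraries and 2.48 CPM in MEZ libraries, and MIR158a a median of 2.60 CPM in DZ and 1.25 CPM in MEZ. Among the loci below 30 reads, given without a test, MIR160c had 12 reads in DZ and 2 in MEZ, and MIR827, whose gene is known to respond to phosphate starvation, had 3 in DZ and 12 in MEZ. MIR160c had reads in only 6 of the 22 libraries and MIR827 in 8, so no zone difference is read from these counts. MIR159a had 7 reads in each zone.

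**Figure D3:**
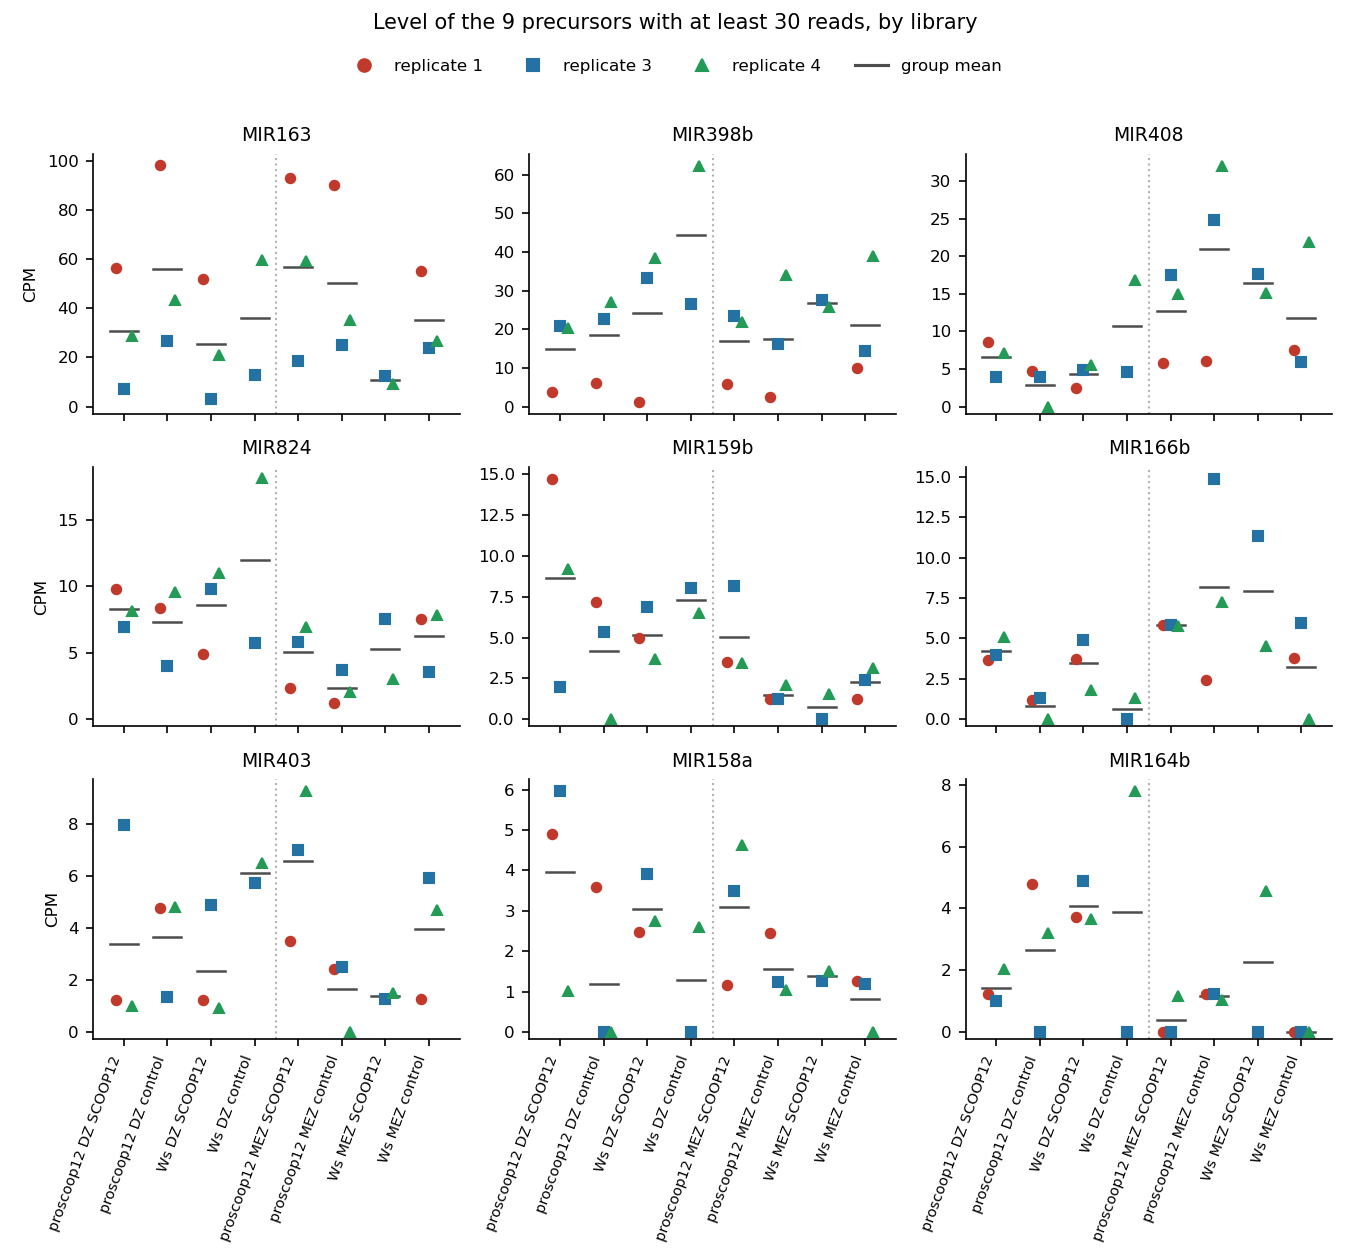
Level in CPM (y axis) of the 9 precursors in each library, by group, with DZ groups left of the dotted line and MEZ groups right of it. Colours and shapes mark the replicate number and bars the group mean; the red replicate 1 points lie at the top for MIR163 and at the bottom for MIR398b.

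SCOOP12 was set against water in each zone to ask which precursors respond to the peptide. In DZ, MIR163 was lower with SCOOP12 in each of the 5 same-number pairs as labelled. It was lower in 3 of 3 pairs without the 2 libraries whose names disagree, and in 3 of 5 with their groups exchanged. In proscoop12 DZ it stood at 56.5, 6.95 and 28.5 CPM with SCOOP12 and at 98.1, 26.6 and 43.2 CPM in control (replicates 1, 3 and 4). In Ws DZ it stood at 51.9, 2.93 and 21.1 CPM with SCOOP12 (replicates 1, 3 and 4) and at 12.6 and 59.8 CPM in control (3 and 4). The treatments overlapped, and levels also differed widely between the replicate numbers. Without the number in the fit the log2 fold change was -0.72 (SE 0.60, edgeR adjusted p 0.653) and 0 of 3 precursors passed in edgeR or DESeq2, where 4.03% of the 844 loci did in edgeR; 0 of 3 and 16.6% of loci had an unadjusted p under 0.05. Same-numbered libraries deviated together, and with the replicate number as a block MIR163 passed at -1.10 (SE 0.30, edgeR adjusted p 0.0172), as 1 of 3 precursors, where 9.95% of loci passed.

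The lower level of MIR163 depended on a few libraries. The blocked value was -0.69 (SE 0.39, edgeR adjusted p 0.381) without Ws DZ control replicate 4, and between -0.94 and -1.31 without any other single library (edgeR adjusted p 0.00756 to 0.0484). It was -0.94 (edgeR adjusted p 0.0487) without the 2 libraries whose names disagree with their labels, and -0.53 (adjusted p 0.602) with their groups exchanged. With replicates 3 and 4 alone it was -1.31 (edgeR adjusted p 0.0417). The share of reads on organellar loci was lower with SCOOP12 in the same 5 of 5 pairs. In proscoop12 DZ it was 38.2%, 22.5% and 25.2% with SCOOP12 and 43.9%, 38.5% and 36.1% in control (replicates 1, 3 and 4), and in Ws DZ 20.3% and 19.7% with SCOOP12 and 38.5% and 39.3% in control (3 and 4). Ws DZ with SCOOP12 replicate 1, which has no control of its number, had 46.9%. With the groups of the 2 libraries exchanged the share was lower in 4 of 5 pairs. Its part in the value of MIR163 was not tested.

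**Figure D4:**
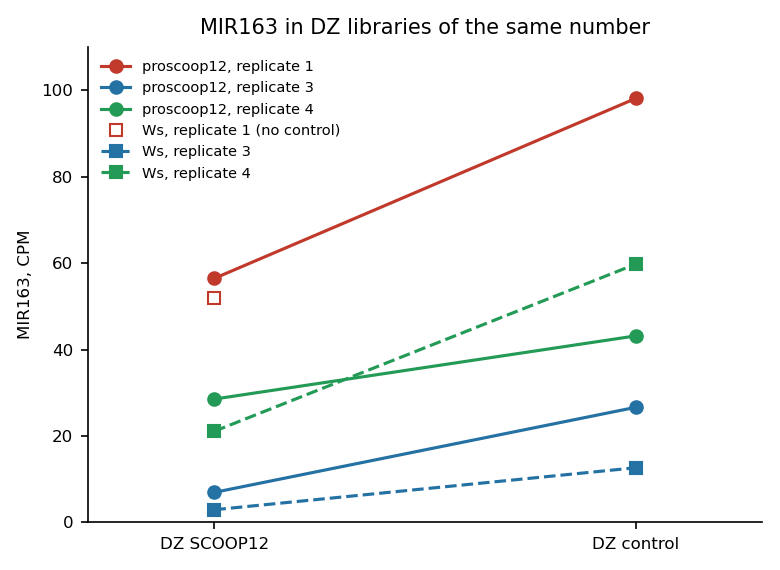
MIR163 level in CPM (y axis) in DZ libraries with SCOOP12 (left) and in DZ control (right), with lines between libraries of the same genotype and number. Groups are as labelled; all 5 lines run higher in control, and the open square is Ws replicate 1, which has no control of its number.

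Of the other precursors in DZ, MIR398b stood at -0.54 (SE 0.61, edgeR adjusted p 0.768) and MIR408 at -0.11 (SE 0.63, adjusted p 0.962) on the log2 scale, and at -0.59 and -0.0584 without the 2 libraries. MIR166b stood between 1.83 and 5.10 CPM in the 6 DZ libraries with SCOOP12 and between 0 and 1.33 CPM in the 5 DZ controls. As labelled these ranges did not overlap and MIR166b was the higher with SCOOP12 in 5 of 5 pairs, on 22 reads with SCOOP12 and 3 in control. With the groups of the 2 libraries whose names disagree exchanged the ranges overlapped, at 1.33 to 5.10 CPM with SCOOP12 and 0 to 4.89 CPM in control, and 4 of 5 pairs were higher. Without the 2 libraries 3 of 3 pairs were higher. It did not pass in the fit of 1184 loci, in which 0 of 9 precursors and 2.36% of loci did (log2 fold change 2.14, SE 0.80, edgeR adjusted p 0.196), nor with the block (2.20, adjusted p 0.106), without the 2 libraries (2.14, adjusted p 0.357) or with their groups exchanged (1.26, adjusted p 0.833). The lower organellar share with SCOOP12 was in the same pairs, and its part was not tested. MIR158a was as labelled also higher with SCOOP12 in 5 of 5 pairs, at 1.02 to 5.96 CPM with SCOOP12 and 0 to 3.59 CPM in DZ control. With the 2 groups exchanged 4 of 5 pairs were higher and 1 was equal at 0, and without the 2 libraries 3 of 3 were higher. MIR158a did not pass (log2 fold change 1.32, edgeR adjusted p 0.505), nor without the 2 libraries (0.96).

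In MEZ, 0 of 3 precursors changed with SCOOP12 in edgeR and 0 in DESeq2, where 2.84% of the 844 loci passed in edgeR; at an unadjusted p under 0.05 there were 0 of 3 precursors and 16.8% of loci. MIR163 stood at 9.11 to 93.0 CPM with SCOOP12 (median 18.7, 5 libraries) and 23.8 to 90.3 CPM in control (median 30.9, 6 libraries), or -0.75 on the log2 scale (SE 0.65, edgeR adjusted p 0.587). MIR398b stood at 0.15 (SE 0.63, edgeR adjusted p 0.932) and MIR408 at -0.10 (SE 0.49, adjusted p 0.943) on the same scale. Ws MEZ with SCOOP12 has no replicate 1, the number in which MIR163 was high and MIR398b low. The MEZ values of these precursors therefore mix treatment with the replicate number. In the 5 same-number pairs MIR163 was higher with SCOOP12 in 2 and lower in 3, and MIR398b higher in 3 and lower in 2. The difference between the zones in the response to SCOOP12 passed for 0 of 3 precursors in edgeR and 0 in DESeq2, where 2.61% of loci passed in edgeR (unadjusted p under 0.05 for 0 of 3 precursors and 16.8% of loci). For MIR163 it was 0.03 (SE 0.80, edgeR adjusted p 1.0) without the block and -0.70 (adjusted p 0.403) with it, for MIR398b -0.69 (SE 0.88, adjusted p 0.776), and for MIR408 0.00 to 2 decimals (adjusted p 1.0). Without the 2 libraries whose names disagree it was 0.0843 for MIR163, -0.77 for MIR398b and 0.0166 for MIR408. A response of MIR163 in DZ alone is therefore not shown. The averages of MIR408 near 0 joined opposite signs in the genotypes, with groups as labelled. With SCOOP12 in DZ it stood at -1.24 (SE 0.82) in Ws and 1.03 (SE 0.85) in proscoop12 on the log2 scale. In MEZ it stood at 0.52 (SE 0.74) in Ws and -0.72 (SE 0.64) in proscoop12. None of these passed (edgeR adjusted p 0.712 to 0.911).

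proscoop12 was set against Ws to ask which precursors differ with the genotype. In MEZ, MIR163 was higher in proscoop12 in 5 of 5 same-number pairs. It stood at 93.0, 18.7 and 59.0 CPM with SCOOP12 and 90.3, 24.8 and 35.2 CPM in control in proscoop12 MEZ (replicates 1, 3 and 4). In Ws MEZ it stood at 12.6 and 9.11 CPM with SCOOP12 (replicates 3 and 4) and 55.2, 23.8 and 26.6 CPM in control (1, 3 and 4). The genotypes overlapped, and the replicate 1 libraries, of which Ws MEZ with SCOOP12 has none, were the highest of each group. The log2 fold change was 1.43 (SE 0.65), with an edgeR unadjusted p of 0.0392 and adjusted p of 1.0, and 0.97 (SE 0.33, adjusted p 0.997) with the block. No precursor of the 3 passed in edgeR or DESeq2, where 0.118% of loci passed in edgeR; 1 of 3 had an unadjusted p under 0.05, as did 2.84% of loci. With all 2599 loci that have reads in the fit, in which 44 precursors enter and 0.077% of loci passed, MIR163 alone of the 44 did (1.48, edgeR adjusted p 0.0200). MIR158a was also higher in proscoop12 in 5 of 5 pairs, at 1.03 to 4.63 CPM in proscoop12 MEZ and 0 to 1.52 CPM in Ws MEZ, on 12 reads in proscoop12 and 4 in Ws, and did not pass in the fit of 1184 loci (log2 fold change 0.93, SE 0.87, edgeR adjusted p 1.0).

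In MEZ, MIR408 (log2 fold change 0.26, SE 0.49) and MIR398b (-0.43, SE 0.63) did not pass either (edgeR adjusted p 1.0 for both). In DZ, MIR398b averaged 16.8 ± 9.59 CPM in the 6 proscoop12 libraries and 32.4 ± 22.0 CPM in the 5 Ws libraries (mean ± SD), or -0.99 on the log2 scale (SE 0.61, edgeR adjusted p 0.997). MIR163 (0.47, SE 0.61) and MIR408 (-0.59, SE 0.59) had the same adjusted p. Without the 2 libraries whose names disagree MIR398b was at -0.96, MIR163 at 0.35 and MIR408 at -0.67 (edgeR adjusted p 0.983 for each). The DZ means of MIR398b mix genotype with the replicate number. Replicate 1 had 3.68 and 5.98 CPM in proscoop12 and 1.24 CPM in Ws, whose control has no replicate 1. MIR398b was lower in proscoop12 in 4 of 5 same-number pairs as labelled. It was lower in 2 of 3 without the 2 libraries and in 3 of 5 with their groups exchanged. Here 0 of 3 precursors passed in edgeR and 0 in DESeq2, where 0.118% of loci passed in edgeR (unadjusted p under 0.05 for 0 of 3 precursors and 2.96% of loci). A change of the genotype difference with zone passed for none of the 3 precursors in edgeR or DESeq2. In edgeR 0 of 844 loci passed (9 or 1.07% at an unadjusted p under 0.05, 0 of them precursors). The change was -0.96 (SE 0.88) for MIR163, -0.85 (SE 0.77) for MIR408 and -0.56 (SE 0.88) for MIR398b, each at an edgeR adjusted p of 1.0. A difference between the genotypes in the response to SCOOP12 passed for none of the 3 in edgeR or DESeq2 either. In edgeR 0 of 844 loci passed (17 or 2.01% at an unadjusted p under 0.05, 0 of them precursors). That difference was 0.75 (SE 0.88) for MIR163, 0.52 (SE 0.75) for MIR408 and 0.06 (SE 0.90) for MIR398b. Without the 2 libraries the genotype difference by zone was -1.10 for MIR163, -0.96 for MIR408 and -0.56 for MIR398b, and the SCOOP12 difference by genotype was 0.34 for MIR163, 0.69 for MIR408 and 0.29 for MIR398b.

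The widest spread of MIR163 and MIR398b ran with the replicate number. MIR398b had 1 to 8 reads in each of the 6 replicate 1 libraries, at 1.24 to 10.03 CPM, and at least 12 reads in each of the other 16, at 14.3 to 62.3 CPM, with no overlap in either zone, genotype or treatment. MIR163 ran the other way, at 51.9 to 98.1 CPM in replicate 1, 2.93 to 26.6 CPM in replicate 3 and 9.11 to 59.8 CPM in replicate 4. In a contrast added after these values were seen, replicate 1 against the mean of 3 and 4 in the fit with the block, MIR163 stood at 1.62 (SE 0.22, edgeR adjusted p 9.23e-06) and MIR398b at -2.36 (SE 0.33, edgeR adjusted p 1.24e-05) on the log2 scale. MIR408 stood at -0.79 (SE 0.43, edgeR adjusted p 0.170). These 2 of 3 precursors stand beside 27.7% of all 844 loci that passed in the same contrast. Replicate 1 thus differed from 3 and 4 at many loci. In the fit of 1184 loci the same contrast called 2 of the 9 precursors and 18.9% of loci. The names of replicates 1 and 3 carry one run number and those of replicate 4 another. What the replicate numbers stand for is not given in the labels, and the part of the run in these values was not tested.

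**Figure D5:**
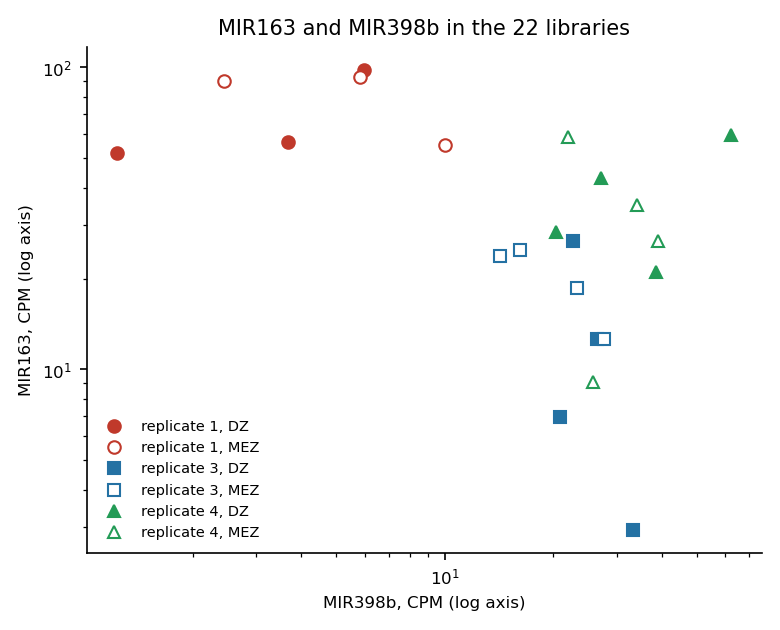
MIR163 level (y axis) against MIR398b level (x axis), both in CPM on log axes, in the 22 libraries, by replicate number, with DZ filled and MEZ open. The 6 replicate 1 libraries lie at 1.24 to 10.03 CPM of MIR398b and 51.9 to 98.1 CPM of MIR163, and the other 16 lie at 14.3 CPM of MIR398b or above.

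Other loci of the miRNA pathway were followed as counts. Of 258 listed MIR loci outside the 59, 25 had at least 30 reads and 14 were tested; 3 were higher and 4 lower in DZ in edgeR, where 19.5% and 18.2% of the 844 loci were. The lower ones included MIR822, at 107 ± 66.5 CPM in DZ and 398 ± 97.0 CPM in MEZ (SD, n = 11 each), or -2.15 on the log2 scale (SE 0.34, edgeR adjusted p 4.69e-05). Of 8 listed TAS loci, which give trans-acting siRNAs after a miRNA cuts them, 6 were tested, 1 was higher in DZ and 0 were lower, beside the same shares. That one was TAS4, at 15.2 ± 8.53 CPM in DZ and 4.58 ± 2.10 CPM in MEZ (SD, n = 11 each), or 1.64 on the log2 scale (SE 0.36, edgeR adjusted p 0.00107). With SCOOP12 in MEZ 1 of the 14 MIR loci, MIR2936, rose, where 2.84% of all loci passed, and in the other comparisons 0 of either list passed in edgeR. A further 28 listed loci of the same families lie outside the 59; 16 had reads and 2, MIR169k (41) and MIR169m (36), had at least 30. The target mimics IPS1 and AT4 were not analysed here.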

How the data were processed

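The authors quantified reads with Salmon, per the submitters' processing notes, which also name DESeq2; no version, library type, strand setting, annotation or build is given in the sources used here. Libraries were stranded mRNA libraries read in pairs, per the labels' protocols. The deposited estimated counts per transcript were rounded. The deposited TPM values were only checked, and served no test. The 58 precursors matched RefSeq TAIR10.1 by locus name, with equal lengths, and mature sequences and positions are RefSeq's.

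The members and lists were chosen with earlier results of these data known. One fit held all 22 libraries and the means of the 8 groups, made with edgeR 4.0.16 and limma 3.58.1 under R 4.3.3. Of 5224 loci, filterByExpr (minimum count 10, total 15) kept 844, libraries were scaled by TMM, and quasi-likelihood F tests were run. The Benjamini-Hochberg adjustment was made per comparison, with a threshold of 0.05. The steps were tested on simulated data. The SE was obtained by dividing the absolute log2 value by the root of F. The 9 precursors with at least 30 reads were to be named with their levels, and full statistics given for those that passed and, where fewer than 3 did, for the 3 with the smallest p. Alternatives were DESeq2 1.42.0, RLE size factors, other filters, subsets of replicates, the replicate block, and each library left out. Copies were sought with blastn 2.17.0.

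Replicate numbers were checked as pairs: after removal of group means, same-number libraries of every compared pair of groups correlated over the 844 loci at r above 0.1, between 0.109 and 0.575 in the 10 zone pairs and between 0.126 and 0.677 in the 5 pairs of each other comparison. By that the numbers pair the samples. Unless the block is named, the tests were run without it, and their SE, adjusted p and shares of loci leave the pairing out. For MIR163 with SCOOP12 in DZ the SE was 0.60 without the block and 0.30 with it. The blocked value stands beside a result where it changes the call.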

Additional observations from a re-analysis of the deposited data

How the results depend on the processing

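Of 999 values of single precursors under the alternatives, 884 kept their direction and their side of the threshold. Most of the results behind them had not passed, so this count says little about the calls. The zone call of MIR408 with 844 loci was lost in 2 of 34 alternatives. Among loci with at least 30 reads, calls were lost in 1 of 31 for MIR166b, 3 for MIR159b, 7 for MIR824 and 16 for MIR164b. For zone, the number of precursors passing (1 of 3) was 4 of 44 with no filter, 5 of 9 among loci with at least 30 reads with or without the replicate block, 2 with replicates 1 and 3 only or replicates 3 and 4 only (the last chosen after seeing the data), 0 with replicate 4 only, and 1 to 4 with each library left out, where a smaller group also admitted more loci. Among the 9 precursors with at least 30 reads the number (5) was 2 with replicates 1 and 3 only or 3 and 4 only, 1 with replicate 4 only, and 3 to 5 with each library left out. For SCOOP12 in DZ the count (0) was 1 with the replicate block, with 844 or 1184 loci, and for genotype in MEZ (0) it was 1 with no filter. The block changed no other call.

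Signs turned only where neither the reported value nor the alternative passed. MIR163 for zone (0.11) was -0.0138 with the block (-0.0146 with 30 reads and the block), -0.30 with replicates 1 and 3, -0.0607 with 3 and 4, and -0.26 to 0.35 with each library left out. For SCOOP12 in MEZ it was 0.0334 with replicate 4 only, for genotype in DZ -0.11 with replicate 4 only, for SCOOP12 in DZ -1.23 to 0.0222 with each library left out, and for SCOOP12 by genotype -0.23 with replicates 1 and 3 and -0.00117 to 1.27 with each left out. Its SCOOP12 difference between zones (0.03) was -0.0432 with no filter, -0.70 with the block (-0.71 with 30 reads), -1.04 with replicate 4, -0.84 with 3 and 4, and -0.48 to 0.77 with each left out. MIR398b for SCOOP12 in MEZ (0.15) was -0.0265 with the block (-0.0273 with 30 reads), -0.64 with replicate 4, -0.0557 with 3 and 4, and -0.0778 to 0.62 with each left out; for SCOOP12 by zone it was 0.10 with replicate 4, and for SCOOP12 by genotype -0.0676 with replicates 1 and 3, -0.0960 with 3 and 4, and -0.32 to 0.54 with each left out. MIR408 was 0.51 (SCOOP12 in MEZ), 0.0459 (SCOOP12 in DZ), 0.31 (genotype in DZ), 0.0288 (genotype by zone) and -0.51 (SCOOP12 by genotype) with replicates 1 and 3, and 0.16 (SCOOP12 in DZ) with 3 and 4; with each left out it was -0.29 to 0.27 (SCOOP12 in MEZ), -0.45 to 0.48 (SCOOP12 in DZ) and -0.0676 to 0.85 (SCOOP12 by genotype). Its SCOOP12 difference between zones, near 0, was 0.0354 with DESeq2, 0.0269 with RLE, 0.0158 without loci over 1% of reads, 0.12 with the block (0.10 with 30 reads), 0.54 with replicate 4, 0.0166 without the 2 libraries named otherwise, 0.41 with 3 and 4, and -0.38 to 0.58 with each left out. For zone among the 9, MIR158a was -0.21 with replicates 1 and 3, -0.33 with 3 and 4 and -0.41 to 0.66 with each left out, and MIR403 was -0.46 with replicate 4. The causes were not tested. Depth limits the rest: 9 of 58 listed precursors had at least 30 reads, and the others entered neither of the 2 fits reported.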
